A study of Argyrosomus regius with 12 samples.

Results

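The genes described here are the 100 Trinity genes whose pools stood most clearly lower in spleens of meagre injected with lipopolysaccharide (LPS) 24 h earlier than in those of fish injected with phosphate-buffered saline (PBS) at the same time. A Trinity gene is a set of assembled transcripts that the assembler grouped as isoforms. The members were chosen from counts summed over isoforms and divided by the library total, as CPM (counts scaled to a common library total). A gene was kept if its mean in PBS 24 h pools was at least 2 CPM and its LPS over PBS ratio of means, with 0.5 CPM added to each, was below 0.67. It was then scored by the log2 ratio of its lowest PBS 24 h pool to its highest LPS 24 h pool, again with 0.5 CPM added, and the 100 highest scores were taken. Of 42480 Trinity genes, 20608 passed the level limit and 2944 passed both limits. The deposited matrix does not pair the identifiers with gene names, so the members carry no known function here, the spleen label could not be checked against marker genes, and most members are given by their rank in the score.

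The meagre (Argyrosomus regius) is a marine bony fish. Juveniles of 22 g, kept at 22 °C, were injected into the body cavity with LPS at 10 µg per g of fish, prepared from strain Lg41/01 of Photobacterium damselae subsp. piscicida, while control fish received PBS. Spleens of 12 fish per group were combined into 3 pools of 4 fish, and each pool gave 1 library. The groups are LPS 4 h, PBS 4 h, LPS 24 h and PBS 24 h, with 3 pools each. LPS is the main outer membrane component of Gram-negative bacteria and a strong inducer of inflammation. The spleen of bony fish filters the blood and holds lymphocytes, macrophages and many red blood cells, and red cells of fish keep their nucleus and RNA. In pooled tissue, fewer cells of a type and less RNA per cell cannot be told apart.

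The 24 h pools of both groups chose the members, so their 24 h values are a description, and no test of them is used as support. Library totals ran from 29614365 to 56556752 counts. LPS 4 h replicate 2 stood apart from replicates 1 and 3 of its group. Without it, edgeR called 7454 Trinity genes at 4 h, against 1 with it, at a Benjamini-Hochberg adjusted p below 0.05. Results at 4 h are therefore given with and without that pool, and no cause of its position was tested.

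At 24 h the members had a median LPS over PBS ratio of mean CPM of 0.353, with quartiles of 0.285 and 0.449, and 87 of the 100 were at or below 0.5. The ratios ran from 0.00221 to 0.549. Mean levels in PBS 24 h pools ran from 2.03 to 433 CPM, with a median of 20.04 CPM, against 12.4 CPM for all genes past the level limit. Together the members made up 1585 ± 203 CPM in LPS 24 h pools and 4368 ± 1679 CPM in those of PBS 24 h (SD over 3 pools). The scores were closely packed below the first few. Only 7 members had a score of at least 1, and the median was 0.68. The last members, at ranks 99 and 100, scored 0.581 and 0.575, and the next 2 genes, just outside, scored 0.575 and 0.572. At rank 100 the highest LPS 24 h pool was at 13.2 CPM and the lowest PBS 24 h pool at 19.96 CPM, and at rank 101 these were 5.84 and 8.95 CPM. Members and the genes next in rank thus had nearly the same scores, and 1366 of the 2944 genes past both limits had no overlap between the groups at 24 h.

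The member with the highest score, TRINITY_DN66_c0_g1, was present in some libraries and absent from others. It was at 0, 0.0269 and 0 CPM in LPS 24 h pools 1 to 3, against 4.05, 5.85 and 2.29 CPM in PBS 24 h pools. Its LPS 24 h pools held 1 count in all and its PBS 24 h pools 418. The ratio was 0.00197, with an exact 95% binomial interval from 4.97e-05 to 0.0110, which covers counting error only. The choice by the 24 h pools sets this ratio low, so nothing is read from the interval. At 4 h it was at 5.63 CPM in LPS replicate 1, with 0 counts in LPS replicates 2 and 3 and in all PBS 4 h pools. Presence therefore differed between pools of the same treatment and time, and the 4 h control pools lacked it as the LPS 24 h pools nearly did.

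The member with the next score, TRINITY_DN39257_c0_g1, was at 3.08, 2.18 and 2.30 CPM in LPS 24 h pools, against 9.51, 15.8 and 10.2 CPM in PBS 24 h pools. At 4 h it was at 5.36, 6.12 and 7.09 CPM in LPS pools and at 6.08, 7.59 and 5.81 CPM in PBS pools. The 4 h groups overlapped, and all 6 of their pools lay between the 24 h groups. Its log2 fold change at 4 h was 0.14 (SE 0.25, Benjamini-Hochberg adjusted p = 0.811 by edgeR). The direction of that small difference turned to -0.07 when libraries were scaled by their totals alone.

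The members at ranks 3, 5, 6 and 7 are given as further examples. At rank 3, the level was at 0.611, 1.89 and 1.11 CPM in LPS 24 h pools, against 8.84, 6.95 and 5.09 CPM in PBS 24 h pools. At 4 h it was low in both groups, at 0.248, 1.16 and 0.192 CPM under LPS and 2.26, 0.474 and 0.696 CPM under PBS, so its PBS 24 h pools stood above all 9 others. At rank 5 it was at 4.89, 5.84 and 2.76 CPM in LPS 24 h pools, against 14.96, 18.6 and 13.1 CPM in PBS 24 h pools. Its 4 h pools were nearly alike, at 7.27, 8.90 and 9.53 CPM under LPS and 7.94, 9.01 and 9.72 CPM under PBS, and lay between the 24 h groups as at rank 2. Rank 6 was at 10.2, 6.17 and 10.5 CPM in LPS 24 h pools, against 71.8, 23.2 and 24.4 CPM in PBS 24 h pools, with PBS replicate 1 far above the others. Rank 7 was at 1.92, 1.54 and 1.54 CPM in LPS 24 h pools, against 4.45, 4.68 and 13.8 CPM in PBS 24 h pools, and here PBS replicate 3 was the high one.

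**Figure D1:**
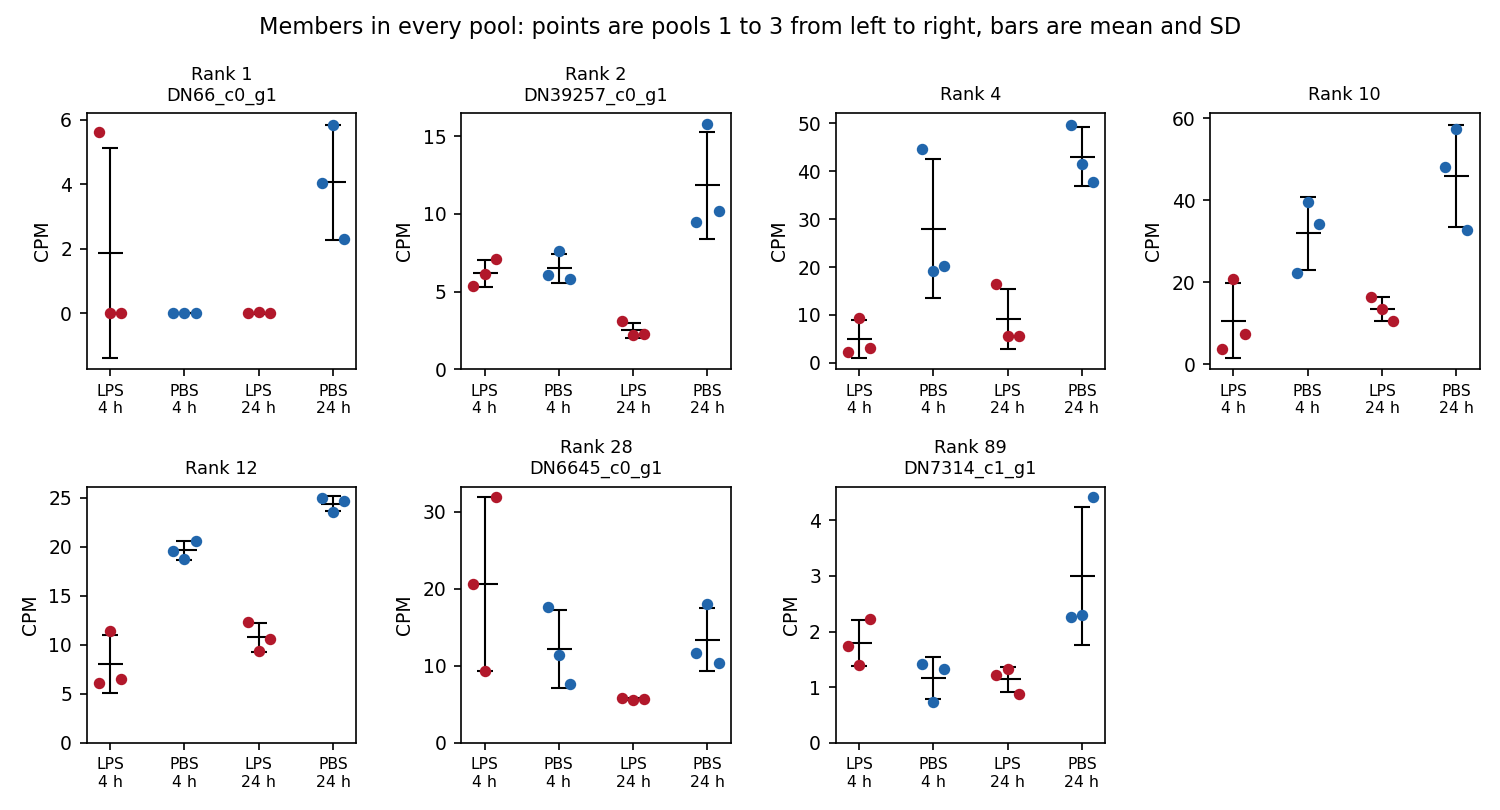
CPM of 7 members in each pool, with groups along the horizontal axis, 1 point per pool and bars for the mean and SD of 3 pools. Ranks 1, 2, 28 and 89 are the members named by rule, and ranks 4, 10 and 12 are members whose LPS pools lay below their PBS pools at 4 h as well; rank 1 is at 0 in 2 of the 3 LPS 4 h pools and in all PBS 4 h pools.

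The 4 h pools were not used in the choice. PBS 4 h means lay between the means of the 24 h groups for 91 of the 100 members, above the LPS 24 h mean for 98 and below the PBS 24 h mean for 93. Among all genes past the level limit, 29.6% had a PBS 4 h mean between those of the 24 h groups. The choice pushes the 24 h groups apart in opposite directions, so an intermediate 4 h level is in part built in, and these contrasts were not tested. For 46 members all PBS 4 h pools stood above all LPS 24 h pools, against 15.3% of genes past the level limit. For 21 members all PBS 4 h pools stood below all PBS 24 h pools, against 3.79%. LPS 4 h means lay above the LPS 24 h mean for 90 members, against 41.9%, and below the PBS 24 h mean for 91, against 65.0%. All LPS 4 h pools stood above all LPS 24 h pools for 50 members, against 10.2%, and below all PBS 24 h pools for 34, against 12.5%. The choice sets the LPS 24 h pools low and the PBS 24 h pools high, so all these counts are in part built in.

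At 4 h the members' share below the controls was read in several ways. All 3 LPS 4 h pools lay below all 3 PBS 4 h pools for 12 of the 100 members, against 13.2% of genes past the level limit, and above them for 0 members, against 6.15%. By CPM on library totals, 55 members had a mean in LPS 4 h pools under that of PBS 4 h pools, against 66.8% of genes past the level limit. With totals scaled by TMM, a method that lessens the pull of a few abundant genes, the count was 37. The share over all genes moved with the scaling too: in the edgeR fits 55 members had a negative change with library totals, beside 64.4% of all genes tested, and 37 with TMM, beside 51.0%. By mean CPM on library totals the count was 48 without LPS 4 h replicate 2, against 68.0% of genes past the level limit. It was 80 without LPS 4 h replicate 1, 77 without PBS 4 h replicate 3 and 36 without PBS 4 h replicate 2. No share over all genes on library totals is given for these settings, so nothing is read from them. In the edgeR fits without those 3 pools in turn, 62, 58 and 31 members had a negative change, beside 52.1%, 51.1% and 49.8% of all genes tested.

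All 100 members passed the expression filter and were tested with the other genes. edgeR's quasi-likelihood test at 4 h called 0 members lower, against a background of 0.0% of 32542 Trinity genes, and 0 higher, against 0.00307%, which is 1 gene. The lowest Benjamini-Hochberg adjusted p among the members was 0.0904 by edgeR. At an unadjusted p below 0.05, 5 members were lower, against 8.08% of all genes, and 2 were higher, against 11.6%. DESeq2 called 3 members lower, against 2.2% of the genes it gave an adjusted p, and 1 higher, against 6.29%. The member called higher was TRINITY_DN66_c0_g1, whose 4 h counts all came from LPS replicate 1. Limma-voom called 0 in either direction. The members had a median fitted log2 fold change at 4 h of 0.16, with quartiles of -0.22 and 0.44, beside -0.01 for all genes tested. Scaling by library totals alone moved both medians down, to -0.04 for the members and -0.19 for all genes, so that the members stayed slightly above the rest while the sign of their median changed.

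Without LPS 4 h replicate 2, edgeR called 8 members lower at 4 h, against 11.2% of 33524 Trinity genes, and 2 higher, against 11.1%. The members' median log2 fold change was then 0.35, beside -0.03 for all genes. With that pool left out, LPS pools lay below all PBS pools at 4 h for 21 members, against 44.8% of genes past the level limit, and above them for 5, against 15.8%. Also without that pool, DESeq2 called 11 members lower, against 12.6% of all genes, and 3 higher, against 12.9%, and limma-voom called 9 lower, against 9.66%, and 1 higher, against 11.1%.

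**Figure D2:**
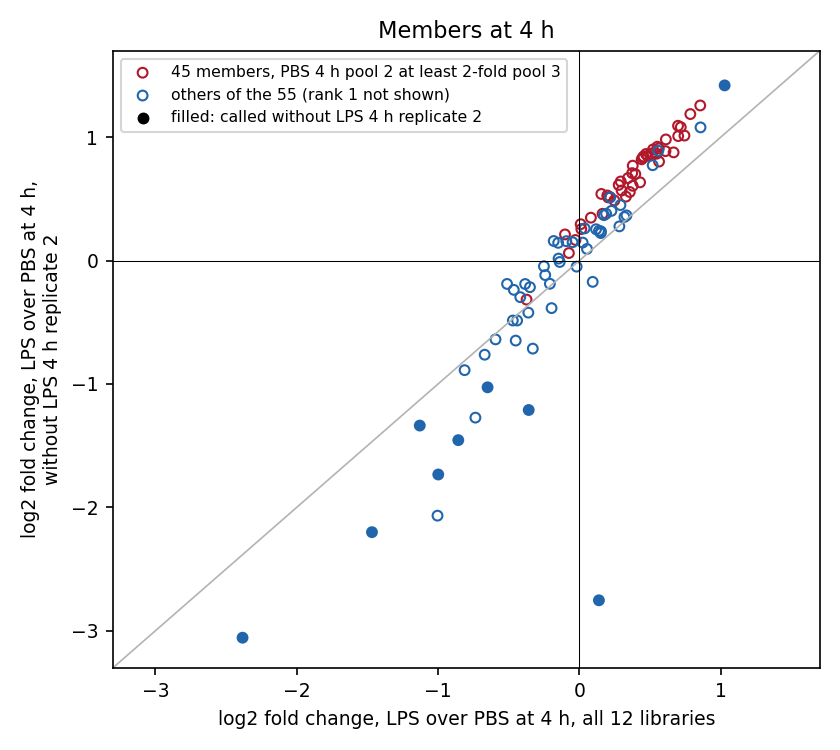
Fitted log2 fold change of LPS over PBS at 4 h for 99 members (rank 1, with 0 counts in PBS 4 h pools, is left off), with all 12 libraries on the horizontal axis and without LPS 4 h replicate 2 on the vertical axis. Filled points are members called by edgeR without that pool, 8 of them lower and 1 higher among those drawn; the grey line marks equal values, and the point at the lower right is rank 11.

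The 8 members called lower without LPS 4 h replicate 2 were at ranks 4, 10, 11, 12, 16, 44, 46 and 52. In that fit edgeR called 11.2% of all genes tested lower, and with all 12 libraries it called 0 members lower. In 3 of the 8, at ranks 4, 10 and 12, LPS replicate 2 also lay below every PBS 4 h pool. With 5 isoforms, the member at rank 4 was at 2.33, 9.41 and 3.13 CPM in LPS 4 h pools, against 44.7, 19.1 and 20.3 CPM in PBS 4 h pools. At 24 h it was at 16.4, 5.57 and 5.499 CPM in LPS pools, against 49.8, 41.6 and 37.7 CPM in PBS pools. The LPS pools of both times lay below all PBS pools of both times. Its log2 fold change at 4 h was -2.38 (SE 0.56, Benjamini-Hochberg adjusted p = 0.0907 by edgeR), and -3.06 without LPS 4 h replicate 2 (SE 0.60, Benjamini-Hochberg adjusted p = 0.00512 by edgeR).

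The member at rank 10 was at 3.72, 20.9 and 7.42 CPM in LPS 4 h pools, against 22.2, 39.5 and 34.2 CPM in PBS 4 h pools. At 24 h it was at 16.3, 13.4 and 10.6 CPM in LPS pools, against 48.0, 57.3 and 32.7 CPM in PBS pools. LPS 4 h replicate 2 was here just under the lowest PBS 4 h pool, while replicates 1 and 3 were far below. The log2 fold change at 4 h was -1.47 (SE 0.46, Benjamini-Hochberg adjusted p = 0.127 by edgeR), and -2.20 without LPS 4 h replicate 2 (Benjamini-Hochberg adjusted p = 0.00237 by edgeR).

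The member at rank 12 had the tightest groups of the 3. It was at 6.15, 11.5 and 6.54 CPM in LPS 4 h pools, against 19.6, 18.7 and 20.7 CPM in PBS 4 h pools. At 24 h it was at 12.4, 9.40 and 10.6 CPM in LPS pools, against 25.01, 23.5 and 24.6 CPM in PBS pools. All LPS pools of both times lay below all PBS pools of both times, and the PBS 24 h pools lay above the PBS 4 h pools. The log2 fold change at 4 h was -1.13 (SE 0.22, Benjamini-Hochberg adjusted p = 0.0904 by edgeR), and -1.34 without LPS 4 h replicate 2 (Benjamini-Hochberg adjusted p = 0.000947 by edgeR).

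In 3 others of the 8, LPS 4 h replicate 2 went against replicates 1 and 3 or stood near the controls. Rank 11 was at 0.397, 5.97 and 0.0824 CPM in LPS 4 h pools, against 2.23, 1.39 and 2.30 CPM in PBS 4 h pools. Rank 46 was at 3.45, 12.2 and 2.42 CPM in LPS 4 h pools, against 8.003, 7.53 and 9.14 CPM in PBS 4 h pools. In both, replicate 2 was the highest of the 6 pools while the other LPS pools were the lowest. Rank 52 was at 2.73, 11.6 and 3.54 CPM in LPS 4 h pools, against 11.2, 14.4 and 13.0 CPM in PBS 4 h pools, so that replicate 2 fell within the control range. The members at ranks 16 and 44 had LPS 4 h replicate 2 at 15.5 and 2.19 CPM, also within their control ranges.

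The 2 members called higher at 4 h without LPS 4 h replicate 2 were those at ranks 1 and 28. The first rests on LPS replicate 1 alone, since replicate 3 had 0 counts. The other, TRINITY_DN6645_c0_g1, was at 20.6, 9.29 and 32.0 CPM in LPS 4 h pools and 17.6, 11.4 and 7.60 CPM in PBS 4 h pools, which overlap through replicate 2. At 24 h it was at 5.85, 5.49 and 5.71 CPM in LPS pools, against 11.7, 18.0 and 10.4 CPM in PBS pools. Its log2 fold change at 4 h was 1.03 (SE 0.44, Benjamini-Hochberg adjusted p = 0.227 by edgeR), and 1.42 without LPS 4 h replicate 2 (Benjamini-Hochberg adjusted p = 0.00968 by edgeR). TRINITY_DN7314_c1_g1, at rank 89, had the next most positive change at 4 h in the fit of all 12 libraries, at 0.857 beside 0.855 for rank 71. Without LPS 4 h replicate 2 its change was 1.08, and besides ranks 1 and 28 those at 71, 48, 18 and 77 were above it, the highest of these 4 at 1.26. It was at 1.74, 1.40 and 2.23 CPM in LPS 4 h pools and 1.42, 0.725 and 1.33 CPM in PBS 4 h pools, and at 1.22, 1.32 and 0.884 CPM in LPS 24 h pools, against 2.25, 2.30 and 4.42 CPM in PBS 24 h pools. Its log2 fold change at 4 h was 0.86 (SE 0.43, Benjamini-Hochberg adjusted p = 0.293 by edgeR).

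The members varied much more between PBS 4 h pools than other genes did. The SD of log2(CPM + 0.5) over the PBS 4 h pools had a median of 0.57 for the members, against 0.20 for genes past the level limit. Replicate 2 was the highest PBS 4 h pool for 67 members, against 30.7% of those genes, and replicate 3 was the lowest for 69, against 27.6%. Among LPS 4 h pools, replicate 1 was the highest for 63 members, against 28.1%, and replicate 2 the lowest for 57, against 23.4%. Many members were thus high and low in the same pools of a treatment, in samples that the rule did not use.

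To describe this, the members were split after their values were seen, by whether PBS 4 h replicate 2 was at least 2-fold above replicate 3 in CPM + 0.5. This held for 45 members and for 692 of the 20608 genes past the level limit (3.36%). Members were 6.50% of those 692 genes and 0.485% of all genes past the level limit. In the 45, LPS 4 h replicate 1 was the highest pool of its group for 40. It was also the highest for 80.2% of the 692 genes, so that course was shared well beyond the members. PBS 24 h replicate 3 was the highest pool of its group for 42 of the 45, and for 77.7% of the 692.

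**Figure D3:**
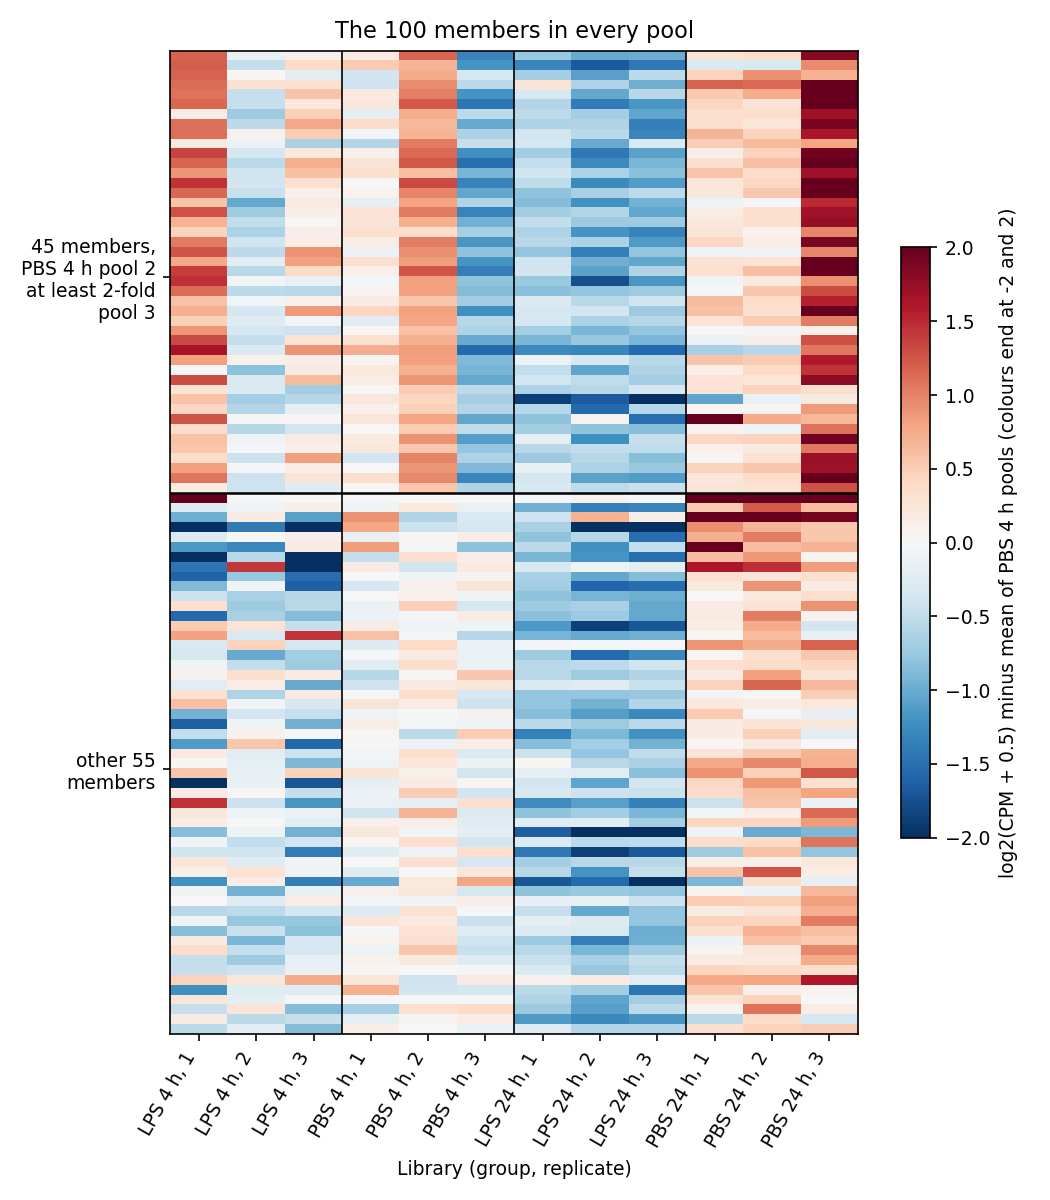
Levels of the 100 members (rows, in order of rank within each set) in the 12 libraries (columns), as log2(CPM + 0.5) minus the mean of the PBS 4 h pools, red for higher and blue for lower. The 45 members above the line were split off by PBS 4 h replicate 2 being at least 2-fold above replicate 3, so their contrast between those pools is built in. They are also high in LPS 4 h replicate 1 and PBS 24 h replicate 3. The other 55 show no such shared course at 4 h, which the split in part builds in too.

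The 45 members that moved together summed to 2912, 1131 and 1733 CPM in LPS 4 h pools 1 to 3, and to 1577, 2735 and 713 CPM in PBS 4 h pools. At 24 h they summed to 1009, 753 and 775 CPM in LPS pools, against 1728, 1797 and 4561 CPM in PBS pools. PBS 4 h replicate 3, which received no LPS, was thus below every LPS 24 h pool. Gene by gene, that control pool lay at or below the highest LPS 24 h pool for 39 of the 45, and PBS 4 h replicates 1 and 2 did so for 2 and 0. Among all genes past the level limit the shares were 66.3% for replicate 3, 66.3% for replicate 1 and 65.1% for replicate 2. The split favours a low replicate 3, so the gap between these control pools is in part built in. At 4 h, 0 of the 45 had LPS pools clear of the PBS pools in either direction. Among genes past the level limit, 13.2% had LPS pools below all PBS pools and 6.15% had them above. Without LPS 4 h replicate 2, 2 of the 45 had LPS pools above all PBS pools and 0 had them below. The shares of genes past the level limit were then 15.8% above and 44.8% below. The split picks genes with widely spaced PBS 4 h pools and a low replicate 3, which by itself makes such separation rarer. Their median fitted log2 fold change at 4 h was 0.40, with a median standard error of 0.57, and 4 of the 45 were negative. Without LPS 4 h replicate 2 it was 0.71, with 1 negative. Of all genes tested, 51.0% were negative with all 12 libraries and 51.5% without that pool.

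The most abundant Trinity gene of the matrix, which is not a member, had its highest pool in each group at the same replicate as the sums of the 45. It was at 57092, 34436 and 32251 CPM in LPS 4 h pools and 18568, 35932 and 13228 CPM in PBS 4 h pools. At 24 h it was at 40711, 19076 and 14590 CPM in LPS pools, and 47283, 34300 and 94817 CPM in PBS pools. The order of its other pools differed from that of the sums in LPS 4 h, LPS 24 h and PBS 24 h. In PBS 4 h the split favours a high replicate 2, so that match is in part built in. The part of this gene in the levels of the 45 was not tested.

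Examples from the 45 are among the most abundant members, since 7 of the 10 members above a PBS 24 h mean of 100 CPM belong to them. The most abundant, at rank 30, was at 139, 81.7 and 91.9 CPM in LPS 24 h pools, against 236, 265 and 798 CPM in PBS 24 h pools. At 4 h it was at 539, 153 and 247 CPM in LPS pools and 201, 498 and 78.5 CPM in PBS pools. Its lowest 4 h level was therefore that of a control pool, PBS replicate 3, which the split favours. The member at rank 15 had the same highest pool in each group, with 63.0, 35.7 and 42.3 CPM in LPS 24 h pools against 129, 114 and 393 CPM in PBS 24 h pools, and 212, 68.9 and 111 CPM in LPS 4 h pools against 111, 224 and 34.6 CPM in PBS 4 h pools.

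The other 55 members were steadier between pools, with a median SD of log2(CPM + 0.5) of 0.30 over the PBS 4 h pools, against 0.87 for the 45, a gap that the split itself makes wider. They summed to 1186, 1010 and 909 CPM in LPS 4 h pools, and to 1243, 1433 and 1188 CPM in PBS 4 h pools. At 24 h the sums were 810, 713 and 693 CPM in LPS pools, against 1519, 1763 and 1737 CPM in PBS pools. On library totals the sums of LPS 4 h and PBS 4 h pools did not overlap, though the nearest values were 1186 and 1188 CPM. TMM multiplies the totals of that nearest pair, LPS replicate 1 and PBS replicate 3, by 0.9227 and 1.061, which makes the sums overlap. Gene by gene on library totals, 44 of the 55 had a lower mean under LPS at 4 h, and so did 66.8% of genes past the level limit. A lower mean was thus not particular to the 55. All 12 members with LPS 4 h pools below all PBS 4 h pools were among these 55, as were all 10 called at 4 h without LPS 4 h replicate 2. Among genes past the level limit 13.2% had such LPS 4 h pools. Without LPS 4 h replicate 2, edgeR called 11.2% of all genes tested lower and 11.1% higher. The split puts genes with widely spaced PBS 4 h pools in the 45, so nothing is read from where these members fall. The median log2 fold change at 4 h of the 55 was -0.15 in the fit of all 12 libraries, with 33 negative. It was -0.05 without LPS 4 h replicate 2, with 30 negative. Of all genes tested, 51.0% and 51.5% were negative in those fits.

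**Figure D4:**
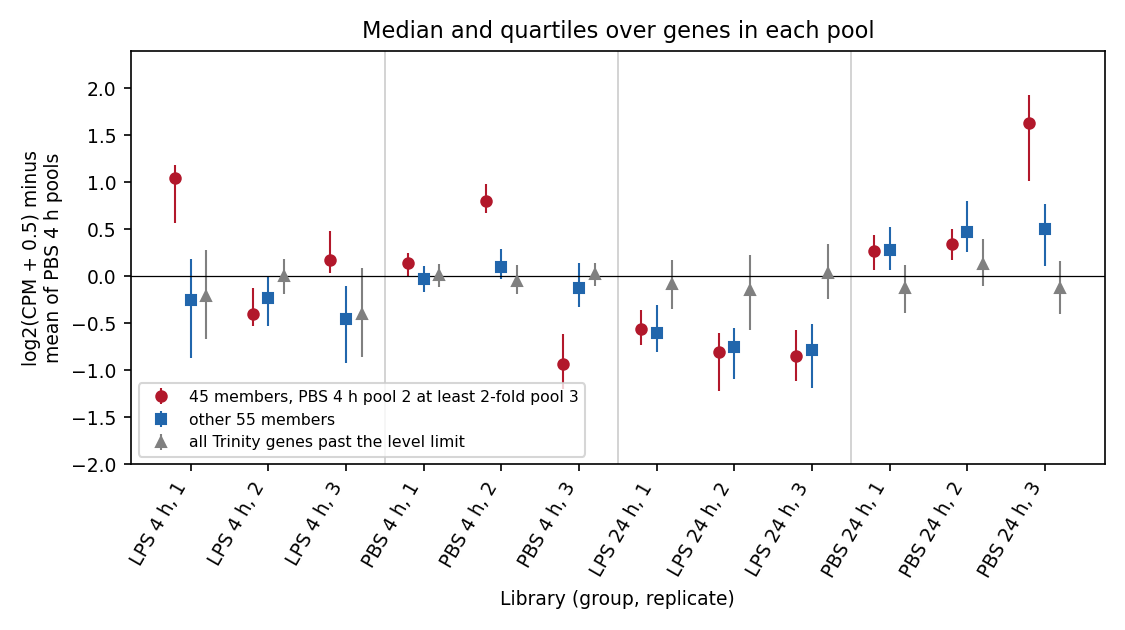
Median over genes (points) with quartiles (bars) of log2(CPM + 0.5) minus the mean of the PBS 4 h pools, in each of the 12 libraries, for the 45 members that moved together, the other 55 members and all 20608 genes past the level limit. The 45 lie at 1.04 in LPS 4 h replicate 1, and at -0.93 in PBS 4 h replicate 3, where the split into 45 and 55 sets them low. Over the LPS 24 h pools the 45 average -0.74 and the other 55 average -0.71, where the choice of members sets them low.

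The member at rank 22 is an example of the 12 whose LPS 4 h pools lay below all PBS 4 h pools. Such LPS 4 h pools were found in 13.2% of genes past the level limit. At 24 h the choice left no overlap between groups in any member. At rank 22, LPS 24 h pools were at 39.6, 36.4 and 35.3 CPM, against 70.3, 80.3 and 89.4 CPM in PBS 24 h pools. At 4 h they were at 51.7, 44.3 and 46.9 CPM under LPS, against 70.3, 73.7 and 65.3 CPM under PBS. The 4 h difference did not pass the test, with a log2 fold change of -0.35 (SE 0.19, Benjamini-Hochberg adjusted p = 0.332 by edgeR), and of -0.22 without LPS 4 h replicate 2 (Benjamini-Hochberg adjusted p = 0.447 by edgeR).

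The edgeR test at 24 h uses the contrast that chose the members, so nothing is read from its count. There edgeR called 23 of the 100 members lower, against 0.273% of 32542 Trinity genes, with 2.98% called higher.

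Most members were assembled as a single transcript. Several isoforms were present for 22 members, against 18.6% of genes past the level limit, with up to 40 in the member at rank 71. In all 22 the isoform with the most PBS 24 h reads was lower in LPS 24 h pools. Counting isoforms at 1 CPM or more in either group, 55 of 57 were lower in LPS 24 h pools. The members were chosen for a lower sum over isoforms in that contrast, so nothing is read from these counts. Both exceptions were in members with many isoforms, at ranks 71 and 98, and the split of reads among isoforms is an estimate. The members came from separate read clusters of the assembly, with 0 sharing a cluster, so the list does not hold fragments that the assembler placed together, although separately assembled pieces of 1 gene cannot be recognised here.

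Which genes made the list depended strongly on single pools. The same rule applied without PBS 24 h replicate 1, 2 or 3 chose 16, 42 and 30 of the 100 members again, and without LPS 24 h replicate 1, 2 or 3 it chose 37, 62 and 76. To see how far the 24 h difference held in pools that had no part in the choice, 100 genes were chosen again without 1 LPS and 1 PBS pool of 24 h, for each of the 9 pairs, and read in the pair left out. These lists shared between 6 and 38 genes with the members. The median log2 ratio of the left-out LPS pool to the left-out PBS pool ran from -1.09 to 0.34, with a middle value of -0.30, beside -0.23 to 0.19 for all genes past the level limit. Between 34 and 91 of the 100 were lower in the left-out LPS pool, with a middle value of 75, beside 36.8% to 67.2% of all genes past the level limit. In 8 of the 9 pairs the chosen genes were lower in the LPS pool by the median. All genes past the level limit were also lower by the median in some of these pairs. With PBS replicate 2 left out they were at -0.23, -0.22 and -0.12 for LPS replicates 1, 2 and 3. They were at -0.06 for LPS replicate 2 with PBS replicate 1. The exception among the chosen genes was the pair of LPS replicate 3 and PBS replicate 1. There 34 of the 100 were lower, beside 37.2% of all genes past the level limit. The 9 pairs share pools and are not independent, so no p is given.

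**Figure D5:**
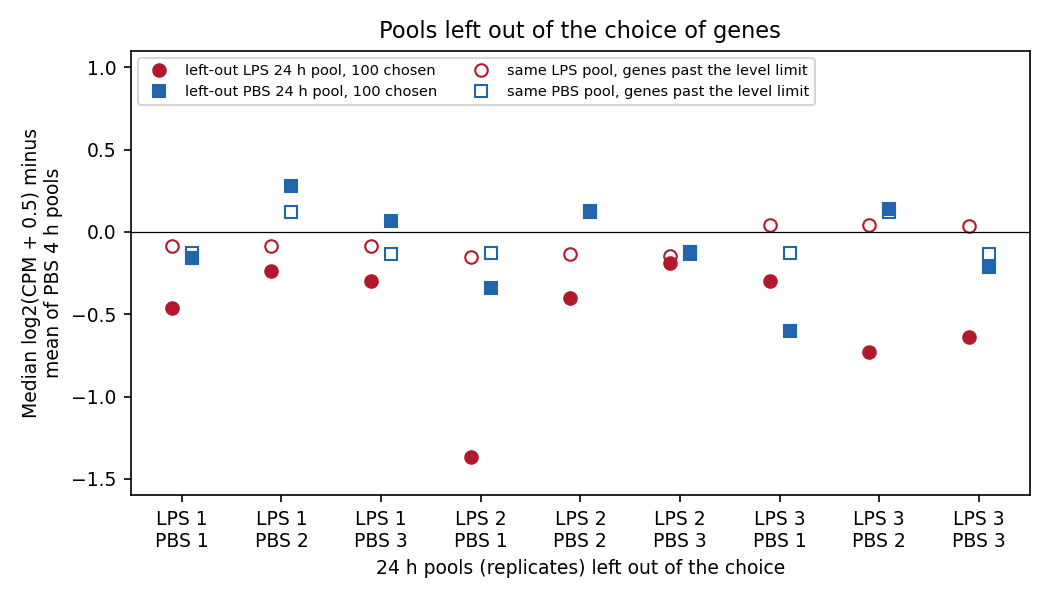
Median log2(CPM + 0.5) minus the mean of the PBS 4 h pools, for 100 genes chosen without the pair of 24 h pools named on the horizontal axis (filled) and for all genes past the level limit (open), in the left-out LPS pool (circles) and PBS pool (squares). The filled circles lie between -1.36 and -0.19, and the filled squares between -0.60 and 0.28.

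Relative to PBS 4 h pools, the genes chosen in this way were lower in the left-out LPS pool for all 9 pairs, at medians from -1.36 to -0.19, while the left-out PBS pool ran from -0.60 to 0.28. All genes past the level limit ran from -0.15 to 0.04 in the same LPS pools and from -0.14 to 0.12 in the same PBS pools. The 9 pairs read only 3 LPS pools, and in LPS replicates 1 and 2 all genes past the level limit were below PBS 4 h too. With LPS replicate 2 and PBS replicate 3 left out, the chosen genes were at -0.19 in the LPS pool, beside -0.14 for all genes. The members themselves had PBS 24 h levels above PBS 4 h levels, at a median of 0.27, 0.41 and 0.84 in PBS 24 h pools 1 to 3, whereas the left-out PBS pool was above PBS 4 h for 4 of the 9 pairs.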

How the data were processed

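Spleen RNA of 12 pools was measured by RNA-seq from a directional kit. The authors deposited 1 matrix of 58975 transcripts by 12 libraries, whose whole numbers were treated as estimated counts (expected counts) already rounded. Per the submitters' processing notes, Trimmomatic 0.39, FastQC, Bowtie2, RSEM and DESeq2 were used, with no role or order stated. How the transcripts were assembled and annotated, and whether counting used strand, is not given in the sources used here.

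Counts were summed over isoforms into 42480 Trinity genes, which were fitted in edgeR 4.0.16 (R 4.3.3) with TMM scaling and the quasi-likelihood test, 1 mean per group and all 12 libraries, so the 4 h test shares its estimate of spread with the 24 h pools. The expression filter kept 32542 genes. P-values were two-sided and Benjamini-Hochberg adjusted over them, with 0.05 as the limit for a call. Standard errors (SE) were derived as the absolute log2 fold change divided by the square root of the test's F statistic. The fit was tested on simulated data with no pool made to stand apart. That test does not cover a pool like LPS 4 h replicate 2. Levels are CPM on library totals, which ran from 29614365 to 56556752 counts, and intervals cover counting error only.

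The members and lists were chosen with earlier results of these data known. Identifiers are printed for the 2 highest scores and for the members at ranks 28 and 89, by the rule for named genes, and other members named by rank were chosen after their values were seen. Other settings tried were limma-voom (limma 3.58.1), DESeq2 1.42.0, other scalings and filters, a replicate block and each replicate left out. After the data had been seen, fits by DESeq2 and limma-voom that leave out LPS 4 h replicate 2 were added, and the members were split into 45 and 55. Replicates are pools of separate fish.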

Additional observations from a re-analysis of the deposited data

How the results depend on the processing

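Members lower at 4 h numbered 0 by edgeR, 3 by DESeq2, 0 by limma-voom and 5 by an unadjusted p under 0.05. The shares of all genes lower were 0.0% by edgeR and 8.08% by the unadjusted p, and 2.2% of those DESeq2 gave an adjusted p. Leaving out single replicates gave 0 to 8 members. The 8 came without LPS 4 h replicate 2, where edgeR called 11.2% of all genes lower. Without that pool, in fits added after seeing the data, DESeq2 called 11 members lower, against 12.6% of all genes, and limma-voom 9, against 9.66%. Members called higher numbered 0 by edgeR, against 0.00307% of all genes, 2 by the unadjusted p, against 11.6%, and 1 by DESeq2, against 6.29%. They numbered 0 to 2 with single replicates left out. The 2 came without LPS 4 h replicate 2, where edgeR called 11.1% of all genes higher. Without that pool, members called higher numbered 3 by DESeq2, against 12.9%, and 1 by limma-voom, against 11.1%. Over all Trinity genes edgeR called 1, DESeq2 2380, limma-voom 0 and the unadjusted p 6407. Leaving out single replicates gave 0 to 7454, and without LPS 4 h replicate 2 DESeq2 called 8510 and limma-voom 6963. With the replicate block 0 genes were called and the members' median log2 fold change was 0.14. The correlation of deviations between pools of the same number in different groups ran from -0.55 to 0.18, against -0.45 to 0.54 for other numbers. The labels describe no pairing, and these ranges cannot show whether pools of the same number were handled together. The members' median log2 fold change ran from -0.12 to 0.36 with single replicates left out. Members with a lower mean CPM under LPS at 4 h numbered 36 to 80. With all pools on library totals they numbered 55, against 66.8% of genes past the level limit. The rule chose 57 members again with TMM-scaled totals, 26 by group means and 16 to 76 with single replicates left out. The 4 h change of TRINITY_DN39257_c0_g1 turned to -0.069 with library totals, and ran from -0.057 (without LPS 4 h replicate 3) to 0.27 with single replicates left out. The causes were not tested. For TRINITY_DN66_c0_g1 no value could be had without LPS 4 h replicate 1, which leaves 0 counts in both groups at 4 h. With 3 pools a group, of which 1 stands apart at 4 h, a member that was not called is not shown to be equal in both groups.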
